A study of Mus musculus with 4 samples.

Results

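Striatal projection neurons are the inhibitory output neurons of the striatum, a ventral telencephalic structure whose neurons arise from the lateral ganglionic eminence. They fall into a direct-pathway class, marked by the D1 dopamine receptor and the peptide substance P, and an indirect-pathway class, marked by the D2 dopamine receptor, an adenosine receptor and enkephalin. Both classes turn dopamine and adenosine signals into changes of cyclic AMP, and a small set of transcription factors sets up and maintains their identity. Described here are 9 genes of this cell type, chosen by name, with earlier results of these libraries known, out of 20793 gene rows in the deposited table. They comprise 3 signalling genes (Ppp1r1b, Pde10a and Rgs9) and 6 transcription factor genes (Rarb, Foxp1, Meis2, Ebf1, Zfp503 and Ikzf1). Each was on 1 row, and all 9 passed the filter of a mean of 1 FPKM or more (fragments scaled by transcript length and by all mapped fragments), as did 12703 rows in all.

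The study profiled mouse brain at postnatal day 1 by RNA-seq, with 2 libraries from wild-type (WT) and 2 from CIC knockout (KO) brain, lettered A and B in each group and called WT A, WT B, KO A and KO B here. CIC (capicua) is an HMG-box repressor, and the knockout libraries carry the genotype Nes-Cre;CIClox/lox, in which Cre under Nestin control acts in neural progenitors. The WT libraries are given as Nes-Cre;CIC+/+ in the genotype field and as Cre-negative on a floxed background in the titles, so whether the controls carry Cre is not settled by the labels. Whether the libraries are of separate animals is not stated, and the p-values reflect the spread between these samples alone, which may be technical. Cic itself was at 51.3 and 56.4 FPKM in WT and at 19.1 and 22.2 FPKM in knockout libraries. The labels do not name the deleted exons, and FPKM cover the whole gene. Library sums lay between 440005 and 449559 FPKM. Total depth is unknown, and low values put depth relative to WT A at 1.197 (WT B), 1.21 (KO A) and 1.03 (KO B).

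KO B stood apart from the other libraries. Across all rows tested, its median absolute log2 difference was 0.22 from WT A and 0.21 from WT B, whereas that of KO A was 0.11 and 0.10. The WT libraries differed from each other by 0.07. Markers of thalamus, midbrain and hindbrain summed to 21.7 and 22.3 FPKM in WT, 30.0 in KO A and 147 in KO B, and all 7 of its tested genes were highest in KO B. Tcf7l2, a thalamic transcription factor, had 2.14 and 2.34 FPKM in WT, 5.17 in KO A and 56.0 in KO B. Otx2 was at 0.838 and 1.53 FPKM in WT, 2.75 in KO A and 11.2 in KO B, and Gbx2 at 0.816, 0.728, 1.90 and 7.66 in the same order. In that list En1 was at 0 in WT A, En2 and Hoxb3 in KO A, Hoxb2 and Hoxb4 in both WT libraries, and none in KO B. Markers of cerebellum summed to 23.8 and 28.6 FPKM in WT, 58.8 in KO A and 129 in KO B. In KO A only Zic1, Zic2 and Zic4 of this list lay above both WT libraries. Zic1 was at 9.51, 13.0, 28.6 and 61.8 FPKM in WT A, WT B, KO A and KO B. In the same order Zic2 was at 11.9, 12.1, 21.9 and 39.6 FPKM and Zic4 at 2.33, 2.89, 8.16 and 12.8. Barhl1, at 0.0114, 0.524, 0.0835 and 11.4 FPKM, was high in KO B only. Atoh1 of that list was at 0 in WT A and KO A. In limma 0 genes of these lists passed over all rows. At an unadjusted p under 0.05, 2 of 7 and 3 of 4 tested were higher, against 840 of 12703 rows. The part of this regional difference in the striatal values below was not tested. The labels say brain and name no region, and En1, a midbrain and hindbrain marker, had 0, 0.144, 0.0169 and 4.30 FPKM in WT A, WT B, KO A and KO B. In bulk tissue RNA, fewer cells of a type and less RNA per cell cannot be told apart.

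The 9 genes gave no uniform shift between genotypes, and KO A and KO B lay on opposite sides of WT for 3 of them. In limma, none of the 9 passed an adjusted p of 0.05 over all rows tested, where 0.0472% of rows were called. At an unadjusted p under 0.05 there was 1 member (Zfp503), against 10.2% of all rows. Of all 12703 rows 840 were higher and 450 lower at that p, the counts against which each gene list here is set. Ebf1, Zfp503 and Rgs9 had both KO values above both WT values, 3 of 9 against 27.1% of rows tested. Ppp1r1b, Foxp1 and Pde10a lay below both WT libraries in both, 3 of 9 against 21.7% of rows. Rarb, Meis2 and Ikzf1 overlapped between the groups. All 9 members were lower in KO B than in KO A, whereas 48.3% of rows tested were. With 2 libraries against 2, the smallest two-sided p of an exact permutation test is 0.333, above the 0.05 threshold.

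**Figure D1:**
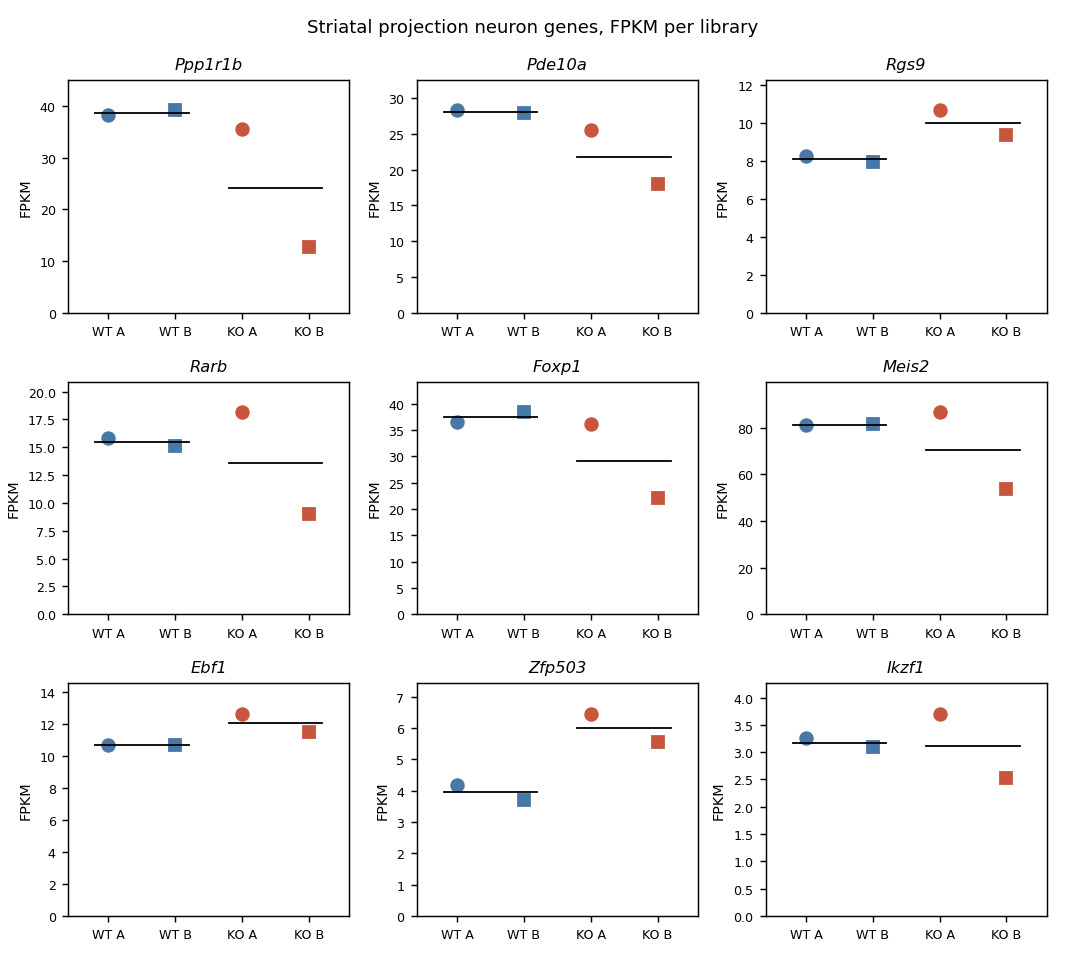
FPKM (vertical axes, from 0) of the 9 striatal genes in each of the 4 libraries; circles are the A and squares the B libraries, WT in blue and knockout in red, and horizontal lines are group means (n = 2). KO B lies below KO A in all 9 panels and is the lowest of the 4 libraries in 6.

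For Rarb, the retinoic acid receptor gene whose own promoter responds to its ligand, the RefSeq promoter window is shown because that response element is present in it. The window runs from 250 bases before to 50 bases after the annotated gene start, on the minus strand at chr14:16575427-16575726 in GRCm38.p6, a build other than the mm9 of the expression table. Capitals mark the direct repeats of a retinoic acid response element (GGTTCA and AGTTCA with 5 bases between them).
Rarb promoter: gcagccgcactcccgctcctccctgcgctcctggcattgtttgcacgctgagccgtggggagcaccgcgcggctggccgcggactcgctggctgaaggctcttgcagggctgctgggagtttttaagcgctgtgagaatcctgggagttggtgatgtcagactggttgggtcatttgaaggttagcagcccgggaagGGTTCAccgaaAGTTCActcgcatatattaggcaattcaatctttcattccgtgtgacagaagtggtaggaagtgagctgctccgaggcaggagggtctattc
Only these exact letters, which are those of the Rarb window, were searched, on both strands and without variants. They were in 2 of 32851 windows (0.00609%), 1 of them that of Rarb, a match that the choice of letters fixed. The share does not describe retinoic acid response elements in general. RefSeq windows were found for 8 of the 9 members (13 windows in all), and Ppp1r1b had none in the table. The CIC octamers TGAATGAA, TGAATGGA, TCAATGAA and TCAATGGA, searched on both strands, were in none of these 13 windows and in 3.84% of all windows. These matches describe letters in a short window and are not sites of binding.

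Among the signalling genes, Ppp1r1b gave the widest difference of the 9. It encodes the dopamine- and cAMP-regulated phosphoprotein that inhibits protein phosphatase 1 in striatal neurons, and lies in mm9 on chromosome 11 from 98210052 to 98219109. Ppp1r1b had 38.2 and 39.1 FPKM in WT, 35.6 in KO A and 12.7 in KO B. KO A was thus within a few FPKM of WT, and KO B was at 32.9% of the WT mean. The means were 38.7 ± 0.679 FPKM for WT and 24.1 ± 16.2 FPKM for KO (SD, n = 2 each). On the log2(FPKM + 1) scale used for all differences here, which understates the change of low genes, the difference was -0.82 ± 0.47 (SE), with a 95% interval from -2.07 to 0.42 and limma's adjusted p of 0.559. Without KO B the difference was -0.12, and without KO A it was -1.53. These fits with 1 knockout library assume that it varies like the WT pair, so only their differences are given for the members. The paralogue Ppp1r1a, another inhibitor of that phosphatase, had 56.3 and 50.4 FPKM in WT, 49.9 in KO A and 45.2 in KO B.

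Pde10a, the cyclic nucleotide phosphodiesterase enriched in striatal neurons (chromosome 17, 8994610 to 9179513), was lower in both knockout libraries, again mostly in KO B. It had 28.3 and 27.9 FPKM in WT, 25.6 in KO A and 18.1 in KO B. The group means were 28.1 ± 0.283 and 21.8 ± 5.34 FPKM. The log2 difference was -0.37 ± 0.18 (SE), with a 95% interval from -0.85 to 0.11 and limma's adjusted p of 0.533. Without KO B it was -0.13, and without KO A it was -0.61. Pde2a, another dual-specificity phosphodiesterase, had 54.5 and 55.5 FPKM in WT, 52.0 in KO A and 35.3 in KO B.

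Rgs9 went the other way. It encodes a regulator of G-protein signalling whose long form acts in striatal neurons, where it speeds the shut-off of G proteins coupled to dopamine receptors (chromosome 11, 109086669 to 109159495). Rgs9 had 8.28 and 7.95 FPKM in WT, 10.7 in KO A and 9.37 in KO B, so that the groups did not overlap and KO A was the highest. The means were 8.12 ± 0.231 and 10.01 ± 0.912 FPKM. The log2 difference was 0.27 ± 0.11 (SE), with a 95% interval from -0.01 to 0.55 and limma's adjusted p of 0.498. Its relatives were not higher in both KO libraries. Rgs6 had 12.3 and 12.1 FPKM in WT and 8.53 and 9.43 in KO A and B, Rgs7 lay between 18.1 and 18.9 FPKM in every library, and Rgs11 had 3.51 and 4.10 FPKM in WT and 2.95 and 2.78 in KO A and B. Gnb5, the G-protein beta subunit that partners these regulators, had 29.4 and 26.9 FPKM in WT and 29.1 and 26.9 in KO A and B.

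**Figure D2:**
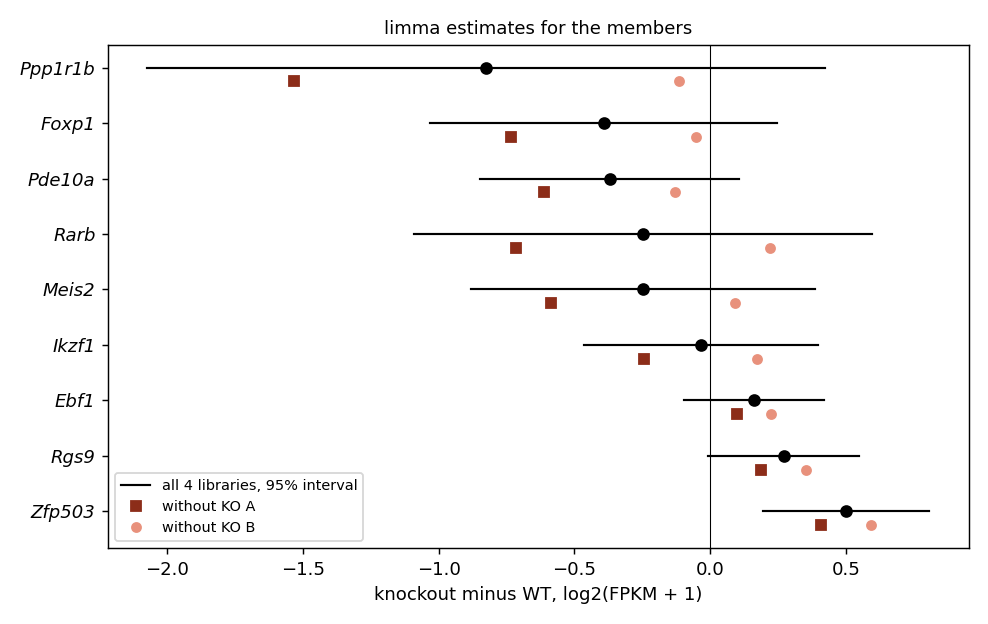
Knockout minus WT on the log2(FPKM + 1) scale (horizontal axis) for each striatal gene; black points and lines are limma estimates with 95% intervals from all 4 libraries, dark squares leave out KO A and light circles leave out KO B. The squares lie left of the circles for all 9 genes, and Zfp503 has the only interval that lies to one side of 0.

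Rarb, Foxp1 and Meis2 shared a low value in KO B with little or no lowering in KO A. Rarb, which is needed for normal development of the mouse striatum (chromosome 14, 17263354 to 17407724), had 15.8 and 15.1 FPKM in WT, 18.2 in KO A and 9.02 in KO B. KO A was the highest and KO B the lowest of the 4 libraries, a ratio of 2.01 between them. The log2 difference between genotypes was -0.25 ± 0.32 (SE), with a 95% interval from -1.09 to 0.59 and limma's adjusted p of 0.749. It was 0.22 without KO B and -0.72 without KO A.

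Foxp1, a forkhead factor of striatal projection neurons that cortical neurons also express (chromosome 6, 98875336 to 99385339), had 36.5 and 38.4 FPKM in WT, 36.1 in KO A and 22.1 in KO B. KO A lay just under the lower WT library. The log2 difference was -0.39 ± 0.24 (SE), with a 95% interval from -1.03 to 0.25 and limma's adjusted p of 0.569. Without KO B it was -0.05, and without KO A it was -0.73. Its relative Foxp2, found in striatal and deep cortical neurons, had 13.0 and 13.5 FPKM in WT and 16.0 and 15.9 in KO A and B, with no overlap. Foxp4 had 31.0 and 32.2 FPKM in WT, 36.8 in KO A and 27.2 in KO B.

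Meis2, a TALE homeobox factor of the lateral ganglionic eminence and its descendants (chromosome 2, 115687000 to 115890794), had the highest level of the 9 genes in every library. It had 81.1 and 81.3 FPKM in WT, 86.7 in KO A and 53.7 in KO B. The WT pair was almost equal, with KO A above it and KO B at 66.2% of its mean. The log2 difference was -0.25 ± 0.24 (SE), with a 95% interval from -0.88 to 0.38 and limma's adjusted p of 0.672. It was 0.09 without KO B and -0.59 without KO A. The family member Meis3 had the same order at a smaller size, with 36.3 and 36.5 FPKM in WT, 38.5 in KO A and 33.1 in KO B. Meis1 was highest in KO B, with 5.27 and 4.56 FPKM in WT and 6.07 and 8.68 in KO A and B.

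Zfp503, Ebf1 and Ikzf1 were the lower-expressed factors, and the former pair was higher in both knockout libraries. Zfp503 encodes Nolz-1, a zinc finger factor of the developing striatum (chromosome 14, 22803184 to 22808823). Zfp503 had 4.19 and 3.71 FPKM in WT, 6.46 in KO A and 5.56 in KO B. Each KO library exceeded each WT library by more than the WT pair differed. The means were 3.95 ± 0.335 and 6.01 ± 0.635 FPKM. The log2 difference was 0.50 ± 0.12 (SE), with a 95% interval from 0.19 to 0.81, an unadjusted p of 0.00917 and limma's adjusted p of 0.428, the lowest of the 9 genes. It was 0.59 without KO B and 0.41 without KO A. Its paralogue Zfp703 lay between 9.82 and 11.6 FPKM in the 4 libraries.

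Ebf1, a helix-loop-helix factor needed for direct-pathway neurons in the mouse (chromosome 11, 44431636 to 44818674), had 10.7 FPKM in each WT library, 12.6 in KO A and 11.5 in KO B. The log2 difference was 0.16 ± 0.10 (SE), with a 95% interval from -0.10 to 0.42 and limma's adjusted p of 0.566. Ebf1 is also expressed in vascular mural cells. Of 10 mural and meningeal genes 5 had no overlap with higher KO values and 0 with lower ones, against 27.1% and 21.7% of rows. None was at 0 in any library. The 10 genes summed to 104 and 140 FPKM in WT and 155 and 160 FPKM in KO A and B. In limma 0 of them passed over all rows, and 2 were higher at an unadjusted p under 0.05, where 840 of 12703 rows were. Col1a1 had 7.02, 9.49, 12.2 and 20.1 FPKM in WT A, WT B, KO A and KO B, Col1a2 17.4, 26.4, 29.7 and 36.8, and Vtn 23.3, 34.96, 41.0 and 37.0. Both collagen genes are ones of fibroblasts and meninges. The mural markers Rgs5 (22.2, 25.4, 22.5 and 19.03 FPKM) and Kcnj8 (3.18, 3.47, 3.41 and 2.33 FPKM), named after their values were seen, overlapped between groups and were lowest in KO B. Their part in the Ebf1 values was not tested. The paralogue Ebf3 had 1.63 and 2.43 FPKM in WT, 1.81 in KO A and 30.7 in KO B, and Ebf2 had 0.570, 0.881, 0.845 and 3.67 FPKM in the same order. Ebf4 had 5.28 and 5.26 FPKM in WT and 7.90 and 10.8 in KO A and B. Thus the family's high values in KO B were those of Ebf3, Ebf2 and Ebf4, with Ebf1 at 108% of its WT mean there.

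Ikzf1, the Ikaros zinc finger factor that acts in enkephalin-positive striatal neurons of the mouse and in blood-derived cells (chromosome 11, 11586216 to 11672929), had the lowest level of the 9 genes in every library. It had 3.26 and 3.09 FPKM in WT, 3.71 in KO A and 2.53 in KO B, above WT in one knockout library and below it in the other. The log2 difference was -0.03 ± 0.16 (SE), with a 95% interval from -0.47 to 0.40 and limma's adjusted p of 0.937. Microglia also express Ikzf1. Of 9 tested microglial genes 5 had no overlap with higher KO values and 0 with lower ones, against 27.1% and 21.7% of rows. The 10 genes listed summed to 81.5 and 94.1 FPKM in WT, 104 in KO A and 172 in KO B, none at 0. In limma 0 passed over all rows, and 3 were higher at an unadjusted p under 0.05, where 840 of 12703 rows were. Among them C1qb had 16.6, 21.1, 24.5 and 39.0 FPKM, C1qc 17.03, 20.0, 23.5 and 39.1, and Cd68 3.98, 4.72, 4.55 and 12.9, in the order WT A, WT B, KO A and KO B. P2ry12, a marker of resting microglia named after its values were seen, overlapped between groups at 3.17, 1.95, 1.97 and 1.82 FPKM and was lowest in KO B. The part of microglia in the Ikzf1 values was not tested. Of the paralogues, Ikzf2 stayed under 1 FPKM and Ikzf3 under 0.05 FPKM in every library, Ikzf4 had 7.39 and 7.49 FPKM in WT and 7.77 and 9.35 in KO A and B, and Ikzf5 had 10.2, 10.9, 9.20 and 9.51 FPKM.

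Of 21 paralogues of the members 17 were tested. Values were higher in both KO libraries for 4 and lower for 6, against 27.1% and 21.7% of rows tested. None of the 17 passed over all rows, and at an unadjusted p under 0.05 Ebf4, Foxp2 and Meis1 were higher and Rgs6 and Rgs11 lower. Ppp1r1c and Pde11a had means under 1 FPKM and were not tested.

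In both WT libraries the order of levels in FPKM was Meis2, Ppp1r1b, Foxp1, Pde10a, Rarb, Ebf1, Rgs9, Zfp503 and Ikzf1. Ppp1r1b and Foxp1 overlapped in WT, and every other pair of neighbours was separate there. In KO A, Foxp1 (36.1 FPKM) stood just above Ppp1r1b (35.6 FPKM). Ppp1r1b was the fourth in KO B and Rarb the seventh. The within-library ratio of Ppp1r1b to Zfp503, a pair chosen after their values were seen, was 9.12 and 10.5 in WT, 5.51 in KO A and 2.28 in KO B.

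**Figure D3:**
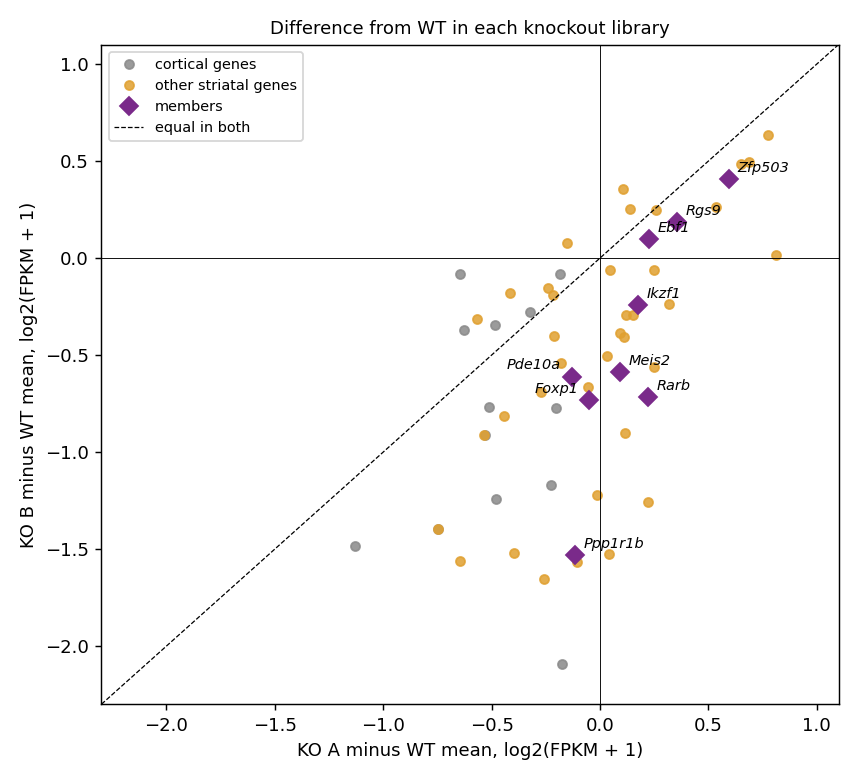
Difference from the WT mean in KO A (horizontal) and KO B (vertical), both on the log2(FPKM + 1) scale, for the 9 striatal genes (purple diamonds, named), other striatal genes (orange) and cortical genes (grey); the dashed line marks equal differences. All 9 diamonds lie below the dashed line, and the grey points lie left of 0 on the horizontal axis. Mef2c, on both lists, is drawn in orange.

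Receptor and peptide genes of striatal projection neurons differed in direction, and 9 of 11 tested were below both WT libraries in KO B against 6 of 11 in KO A. Over all rows tested these shares were 41.3% in KO B and 37.0% in KO A. Of these 11 genes 6 were lower and 1 higher in both KO libraries than in either WT library, against 21.7% and 27.1% of rows. In limma 0 of the 11 passed over all rows. At an unadjusted p under 0.05, 3 were lower (Drd1a, Cnr1 and Chrm4) and 1 was higher (Tac1). The list median was -0.18 in KO A and -0.69 in KO B. Gpr6 had 3.14 and 2.08 FPKM in WT, 2.32 in KO A and 0.207 in KO B.

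Drd1a, Tac1 and Pdyn, the genes shown here for the direct-pathway class, did not share a direction. Drd1a, the D1 dopamine receptor gene, had 6.23 and 5.72 FPKM in WT, 3.46 in KO A and 1.37 in KO B. Both knockout libraries were lower than WT, with a log2 difference of -1.10 ± 0.32 (SE), a 95% interval from -1.93 to -0.27, an unadjusted p of 0.0196 and limma's adjusted p of 0.47. Tac1, which encodes substance P, had 33.9 and 32.8 FPKM in WT and 48.7 and 40.3 in KO A and B, both higher. Pdyn, the dynorphin precursor gene, overlapped between groups at 7.30, 4.85, 5.26 and 6.34 FPKM. Chrm4, on the same receptor and peptide list, had 2.35 and 2.11 FPKM in WT, 1.22 in KO A and 0.715 in KO B, lower in both.

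Among indirect-pathway genes, Drd2 had 7.68 and 7.37 FPKM in WT, 8.25 in KO A and 5.96 in KO B, a log2 difference of -0.09 with a 95% interval from -0.52 to 0.34 (limma's adjusted p = 0.83). Adora2a, the adenosine receptor gene of this class, had 11.2 and 10.5 FPKM in WT, 12.8 in KO A and 3.96 in KO B, whereas the enkephalin precursor gene Penk had 21.9, 18.5, 14.8 and 17.6 FPKM. The within-library ratio of Drd1a to Drd2 was 0.811 and 0.775 in WT, 0.419 in KO A and 0.229 in KO B, so that it was lower in both knockout libraries. Drd2 is also expressed by dopamine neurons, and this pair of genes was set against each other after their values were seen.

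**Figure D4:**
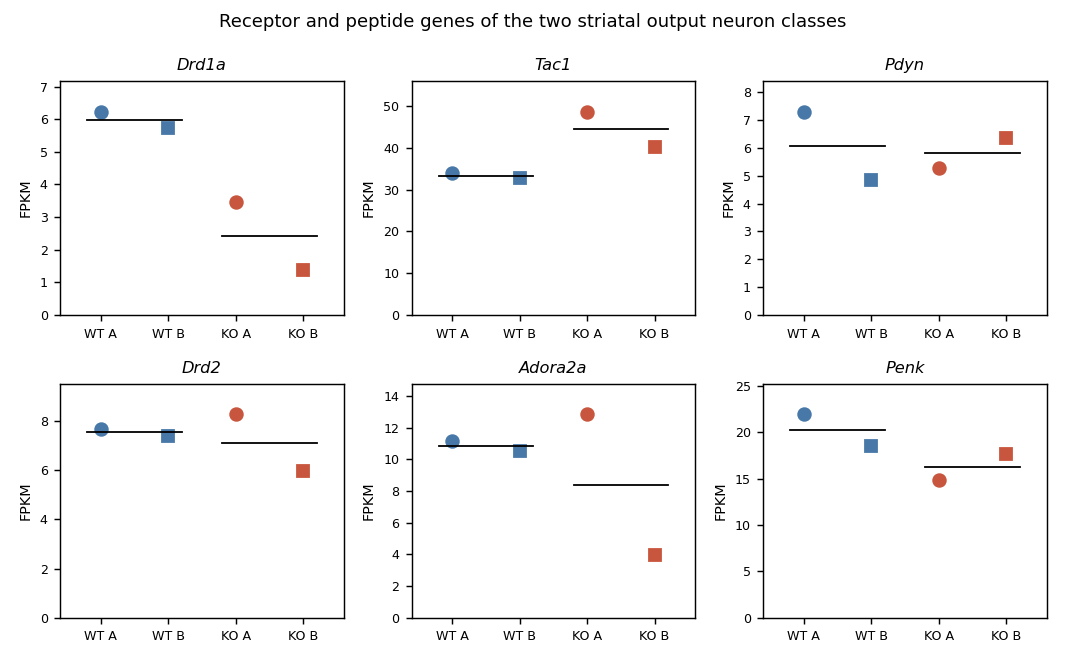
FPKM (vertical axes, from 0) per library of direct-pathway genes (top row) and indirect-pathway genes (bottom row); colours, shapes and lines are as in the plot of the 9 genes. Drd1a is lower and Tac1 higher in both knockout libraries, while Adora2a is low in KO B only.

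Of 15 tested signalling genes of these neurons 7 lay below and 2 above WT in both knockout libraries, against 21.7% and 27.1% of rows tested. Of the 15, 0 passed over all rows, and the list medians were 0.03 in KO A and -0.39 in KO B. At an unadjusted p under 0.05, 3 were lower (Arpp21, Itpr1 and Rgs7bp) and 1 was higher (Ptpn5). Gng7, the G-protein gamma subunit that couples striatal receptors to adenylyl cyclase, had 51.4 and 51.6 FPKM in WT, 53.0 in KO A and 17.2 in KO B. Ngef, a neuronal guanine nucleotide exchange factor gene, had 27.2, 27.4, 27.0 and 11.1 FPKM in the same order. Arpp21, which encodes a cAMP-regulated phosphoprotein, was lower in both, with 48.2 and 45.8 FPKM in WT and 34.3 and 26.3 in KO A and B. Ptpn5, the striatal-enriched tyrosine phosphatase gene, had 56.0 and 51.8 FPKM in WT and 87.3 and 76.3 in KO A and B, higher in both.

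Of 11 tested transcription factor genes of the striatal lineage beyond the 9, 3 lay above WT and 2 below it in both knockout libraries. These counts are near the shares over all rows tested, 27.1% above and 21.7% below. Of the 11 genes 0 passed over all rows. The list medians were 0.25 in KO A and -0.24 in KO B, and all 11 were lower in KO B than in KO A, against 48.3% of rows. In KO A 9 of the 11 lay above both WT libraries, where 42.0% of rows tested did. At an unadjusted p under 0.05, Foxp2, Pbx3 and Six3 were higher and Mef2c was lower. Six3, a homeobox gene of the ventral forebrain, had 5.07 and 3.72 FPKM in WT and 8.16 and 7.30 in KO A and B. Bcl11b, which encodes CTIP2 in striatal and deep cortical neurons and was named after its values were seen, had 38.9 and 41.0 FPKM in WT, 43.3 in KO A and 20.9 in KO B. Rxrg, the retinoid X receptor gene whose product pairs with retinoic acid receptors, had 25.4 and 24.1 FPKM in WT, 18.5 in KO A and 7.98 in KO B. Mef2c, shared with the cortical list, had 132 and 137 FPKM in WT and 80.0 and 50.6 in KO A and B.

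Genes of GABAergic progenitors and GABA synthesis differed between the knockout libraries. In KO A 10 of 11 tested lay above both WT libraries, against 42.0% of rows tested. In KO B 7 of 11 lay below both, against 41.3% of rows. Of the 11 genes 4 lay above and 1 below WT in both knockout libraries, against 27.1% and 21.7% of rows tested. The list medians were 0.26 in KO A and -0.23 in KO B. None passed over all rows, and 2 were higher at an unadjusted p under 0.05. Gad1 had 52.8 and 48.7 FPKM in WT and 77.3 and 70.3 in KO A and B, Gad2 had 18.6 and 18.5 FPKM and then 22.9 and 27.5, and Vax1 had 4.10 and 3.603 FPKM and then 6.09 and 4.15. GABAergic neurons outside the striatum express Gad1 and Gad2 too. Of 12 tested retinoic acid pathway genes 5 lay above and 1 below WT in both knockout libraries, against 27.1% and 21.7% of rows tested. Of the 12, 0 passed over all rows, and 2 (Cyp26b1 and Rdh10) were higher at an unadjusted p under 0.05, where 840 of 12703 rows were. The single gene below WT in both was Rxrg. In KO A 10 of the 12 lay above both WT libraries, against 42.0% of rows tested. Cyp26b1, which degrades retinoic acid, had 6.90 and 6.31 FPKM in WT and 8.77 and 10.3 in KO A and B, and Aldh1a1, which makes it, had 0.802, 1.37, 1.48 and 3.99 FPKM. The remaining receptors of that family, Rara and Rarg, lay between 5.36 and 6.51 FPKM and between 3.19 and 4.16 FPKM.

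Genes of the cortical list, which is not confined to projection neurons, were mostly low in both knockout libraries, including KO A. All 13 cortical genes lay below both WT libraries in KO A and 12 of 13 did in KO B, whereas the striatal members did so in 3 of 9 and 6 of 9. Over all rows tested these shares were 37.0% in KO A and 41.3% in KO B. Conversely, 6 of 9 striatal genes and 0 of 13 cortical genes lay above both WT libraries in KO A, where 42.0% of rows did. Of the other lists, 9 of 11 striatal factor and 10 of 11 GABAergic progenitor genes did so. Among striatal receptor and peptide genes it was 3 of 11, and among signalling genes 5 of 15. The cortical median was -0.49 in KO A and -0.77 in KO B, and the median of the 9 striatal genes was 0.17 and -0.59. Over all rows tested the medians were 0.01 and 0.03. No cortical gene passed over all rows, and 8 were lower at an unadjusted p under 0.05, where 450 of 12703 rows were. Slc17a7, a vesicular glutamate transporter gene, had 45.4 and 50.3 FPKM in WT, 42.2 in KO A and 10.4 in KO B. The difference between the striatal and cortical lists was not tested, since each knockout library gives 1 value per list.

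**Figure D5:**
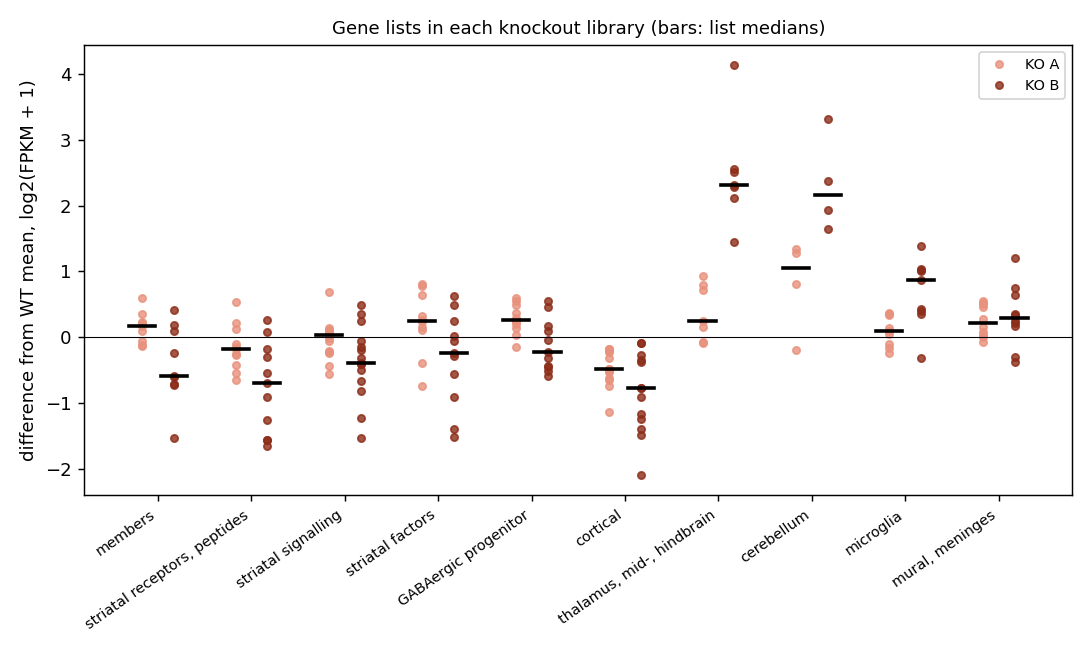
Difference from the WT mean on the log2(FPKM + 1) scale (vertical axis) for each tested gene (points) in KO A (light) and KO B (dark), by gene list, with black bars at list medians. The striatal members have medians of 0.17 and -0.59, the cortical list is below 0 in both knockout libraries, and the thalamic, midbrain and hindbrain list is at 2.31 in KO B.

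Rows with the most similar pattern were taken by the root mean square distance between centred log2(FPKM + 1) values over the 4 libraries, among 9564 other rows with a mean of 5 FPKM or more. With 4 libraries many rows come close to any gene, and the match is a description. The nearest to Ppp1r1b were Rprml (12.5, 11.97, 12.04 and 3.85 FPKM in WT A, WT B, KO A and KO B) and Nfya (26.1, 25.3, 21.9 and 8.47 FPKM), at distances of 0.06 each. Zfp503 lay nearest to Gad1 (0.02) and to Pcsk1n (0.03), and Rgs9 to Ly6h and Tro (0.02 each). Rarb lay nearest to Cybasc3 and to the GABA-A receptor subunit gene Gabra5 (0.03 each), the latter with 54.8, 55.0, 65.0 and 34.4 FPKM. Foxp1 was nearest to Rbmx and Tmem205, Meis2 to Snx32 and Rph3a, Pde10a to Acsl5 and Tdp1, Ebf1 to March1 and Mfsd11, and Ikzf1 to Slc15a4 and Dact1, at distances between 0.006 and 0.018.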

How the data were processed

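The deposited table gives 1 FPKM value per gene row and library, made by the authors; the unit was inferred from the tools and the values. Tools listed in the submitters' processing notes, without order or settings, are TopHat2 2.0.11, Cufflinks 2.1.1, cutadapt and bcl2fastq 2.17, with the mm9 build. Coordinates come from the table (mm9), counted from 1. FPKM are not counts, so log2(FPKM + 1) was fitted for the 12703 rows with a mean of 1 FPKM or more in limma 3.58.1 under R 4.3.3 (lmFit and eBayes, trend off, no covariate, two-sided, Benjamini-Hochberg over all rows, threshold 0.05, 2 residual and 2.63 prior degrees of freedom). The calculation was tested on simulated data.

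Groups follow the description field. The members and the 15 other gene lists were chosen with earlier results of these data known. Named genes are the members, their paralogues, the dopamine receptors, and up to 3 genes per list with the largest difference; others are genes past an unadjusted p of 0.05, marker genes at 0, peptide, receptor, G-protein and retinoid genes that complete a description, and those stated as chosen after their values were seen. Some genes that this rule names are not reported here. Drd1 is listed as Drd1a. Relative depth is the most common ratio of values above 0 and under 0.15 FPKM to those of WT A. No fragment counts were given, so no counting interval is stated. Promoter windows are RefSeq's on GRCm38.p6. Alternatives covered the pseudocount (0.1 and 5), the filter, rescaling, limma's trend, the replicate letters as a block, each library left out, and the 13 rows at 0 beside 10 FPKM or more left out.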

Additional observations from a re-analysis of the deposited data

How the results depend on the processing

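No member was called under the alternatives that kept both knockout libraries. Fits without KO A or without KO B take their spread from the WT pair alone, so for the members only their differences are given. Without KO B the differences of Rarb, Meis2 and Ikzf1 turned positive: with a library left out they ran from -0.72 to 0.22, from -0.59 to 0.092 and from -0.24 to 0.17. The median over the 9 genes was -0.25 and ran from -0.59 to 0.17 with a library left out. Members with no overlap between groups numbered 6, where 48.9% of all rows had none, and 6 to 9 with a library left out, where 62.3% to 89.3% of all rows had none. With all libraries, 3 rows were called higher and 3 lower. Higher calls were 1 with a pseudocount of 0.1, 1 with no filter, and 1 to 2269 with a library left out. Lower calls were 3 to 2036 with a library left out. Without the rows at 0, limma called 0 rows higher and 0 lower, with 850 and 449 at an unadjusted p under 0.05. The replicate block called 4 rows higher and 3 lower and 0 members (lowest adjusted p 0.338). Whether the letters A and B mark a shared batch is not stated. The A minus B differences of the 2 genotypes had a correlation of -0.01 across rows. With 1 such difference per genotype, this cannot decide whether the letters pair the libraries. With a mean of 5 FPKM or more, Zfp503 and Ikzf1 were not tested. Depth limits most the members with low FPKM, Ikzf1 and Zfp503.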

Other observations

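Markers of other sources in these brains gave the following values. Over all rows tested, 27.1% lay above and 21.7% below WT in both knockout libraries. At an unadjusted p under 0.05, 840 of 12703 rows were higher and 450 lower. Choroid plexus genes were higher in both knockout libraries (4 of 4 tested, 0 passing over all rows in limma and 4 at an unadjusted p under 0.05), and they also differed within WT. Ttr had 144 and 475 FPKM in WT A and B and 951 and 1005 in KO A and B, Folr1 1.91, 4.999, 8.27 and 12.5, and Clic6 1.096, 3.25, 5.55 and 7.09 in the same order. Of 5 endothelial genes 2 were above WT in both knockout libraries, Pecam1 (6.62, 8.87, 9.15 and 11.7 FPKM) and Tek (3.82, 4.11, 4.37 and 4.54), and Kdr overlapped (8.19, 9.71, 8.82 and 7.75). Of 7 olfactory bulb interneuron genes 1 was above WT in both, Calb2 (21.0, 24.0, 29.0 and 52.9 FPKM), and 1 below, Prokr2 (5.16, 5.05, 4.87 and 2.78), while Th overlapped (1.28, 2.32, 2.19 and 3.10). Neither of these lists had a gene at an unadjusted p under 0.05.

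The haem synthesis gene Alas2, a marker of red cells, had 8.88 and 5.76 FPKM in WT, 9.25 in KO A and 40.1 in KO B, and 4 rows of the blood list were tested with none at an unadjusted p under 0.05. Both rows of Hba-a1 were listed at 0 in KO A and at 436 and 222 FPKM in KO B, and Gata1 was at 0 in WT A, WT B and KO A. A listed 0 beside high values can be a failed estimate.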
